A study of Mus musculus with 24 samples.

Results

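Complement is a set of secreted proteins, receptors and inhibitors that tags debris, microbes and synapses for removal by phagocytes. Here 8 of its genes were followed through the cortex of 5xFAD mice of 4 genotypes: C1qa, C1qb, C1qc, C3, C4b, C3ar1, C5ar1 and Serping1. They were taken by name from a count table of 24421 genes, and all 8 passed the filter on low counts that left 16316 genes for testing. The 24 libraries came from 24 mice aged 7.5 months, 1 cortex each. Every animal carried 5xFAD, human amyloid precursor protein and presenilin transgenes with familial Alzheimer's disease mutations, driven in neurons by the Thy1 promoter. The 4 groups of 6 mice were labelled WT (no knockout named beside 5xFAD), Trem2KO, Plcg2KO and Plcg2HET (heterozygous for the Plcg2 knockout). Each group had 3 males and 3 females, apart from Plcg2KO with 4 males and 2 females. Mice without the 5xFAD transgenes were not analysed here, so the levels below are all levels in cortex with amyloid. The deleted exons, and any use of littermates, are not given in the labels.

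In the classical pathway, C1q binds a target and its partner proteases cleave C4 and C2, which together form the enzyme that cleaves C3. Fragments of C3 coat the target, while the small fragments C3a and C5a act on the receptors encoded by C3ar1 and C5ar1. Serping1 encodes C1 inhibitor, a serpin that blocks the proteases bound to C1q. In the brain, microglia make most of the C1q and carry both anaphylatoxin receptors, and astrocytes are a main source of C4. C1q and C3 are known for tagging synapses for removal by microglia. TREM2 is a lipid-sensing microglial receptor, and PLCG2 is a phospholipase that signals downstream of it.

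Total counts ran from 36272966 to 82990818 per library. The targeted genes were lower where the labels said so: Plcg2 was at 11.8 ± 3.14 CPM in WT and 0.984 ± 0.159 in Plcg2KO, and Trem2 at 82.5 ± 34.9 in WT and 6.01 ± 1.21 in Trem2KO (CPM, the count scaled by library size with TMM factors, mean ± SD, n = 6). Loss of Plcg2 went with less Trem2 mRNA, though that label does not name Trem2. Its mean there was 19.1 ± 5.39 CPM, a log2 fold change against WT of -1.89 (95% interval -2.22 to -1.56). The reverse was not seen, as Plcg2 in Trem2KO differed from WT by -0.04 (95% interval -0.37 to 0.30). In the libraries labelled Plcg2HET, Plcg2 was at 12.0 ± 4.98 CPM, with a log2 fold change against WT of 0.02 and a 95% interval of -0.31 to 0.36, so its level did not mark these mice as heterozygous. The ribosomal precursor Rn45s took over 5% of counts in 3 libraries (Plcg2HET F3, WT F1 and Plcg2HET F1). Each library's trend of expression with gene GC content, a rank correlation across genes, was between -0.56 and -0.28 in Plcg2KO and between -0.08 and 0.52 in Trem2KO. It ran from -0.45 to 0.55 in Plcg2HET and from -0.51 to 0.25 in WT. Neuron markers summed to between 5905 and 8914 CPM over the libraries (6 genes, none at 0).

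The means of the C1q chains and C3ar1 did not follow the same order of genotypes as that of C4b. C1qa, C1qb, C1qc and C3ar1 were lower in both knockouts than in WT, and were not called different between Plcg2HET and WT. C5ar1, the other receptor, was also lower in both knockouts than in WT, but was called higher in Plcg2HET. The mean of C4b was highest in the libraries labelled Plcg2HET and lowest in Plcg2KO, and its mean in Trem2KO was above that of WT. Neither knockout was called different from WT for C4b, while Plcg2HET was called higher. Against WT, 6 of the 8 members were lower and 1 was higher in Plcg2KO (edgeR's quasi-likelihood test, adjusted p under 0.05 over all 16316 genes), where 13.1% of all genes were called, 7.63% lower and 5.44% higher. In Trem2KO against WT, 5 were lower and 1 was higher, where 15.7% of all genes were called, 8.16% lower and 7.56% higher. In Plcg2HET against WT, 3 were higher and none lower, beside 18.0% of all genes called, 10.9% higher and 7.13% lower. Between the knockouts, 1 of the 8 was called, C4b, which was lower in Plcg2KO, and 16.5% of all genes were called, 8.82% lower and 7.63% higher. Against Plcg2HET, 7 members were lower in Plcg2KO, where 35.2% of all genes were called, 20.2% lower and 15.0% higher. In Trem2KO against Plcg2HET 6 were lower, where 15.5% of all genes were called, 9.28% lower and 6.27% higher. The median log2 fold change of the 8 members was -1.14 in Plcg2KO, -0.80 in Trem2KO and 0.30 in Plcg2HET, each against WT, where the medians over all genes were 0.00, -0.02 and -0.01. The 3 comparisons with WT share the WT libraries.

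**Figure D1:**
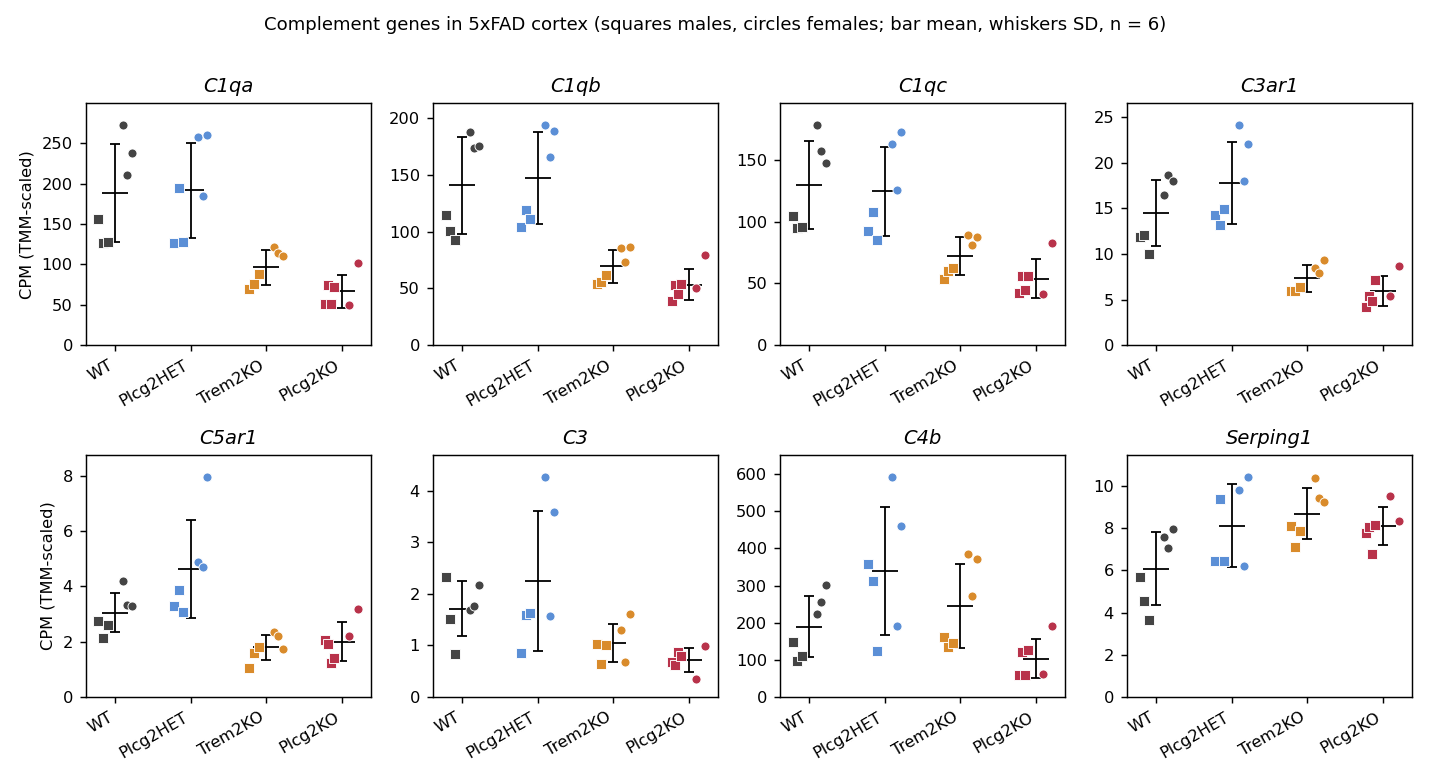
Level of each gene in every library: the vertical axes give CPM from 0, the horizontal axes the 4 genotypes, squares males and circles females, with the mean and SD of 6 mice. C1qa in Plcg2KO (49.3 to 102 CPM) lies wholly below WT (126 to 272 CPM), while C4b overlaps between every pair of genotypes.

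C1qa, C1qb and C1qc encode the 3 chains that assemble together into C1q, the recognition molecule of the classical pathway. They lie side by side on chromosome 4 of mm10 within 18700 bases (136880145 to 136898844), in the order C1qb (136880145 to 136886177), C1qc (136889802 to 136892914) and C1qa (136895916 to 136898844), all on the minus strand. No other annotated gene overlaps them. Because these neighbours moved together across the genotypes, the 250 bases before the RefSeq start of C1qb and C1qc are printed here on the minus strand, 5′ to 3′ (GRCm38.p6, chr4:136886201-136886450 and chr4:136892915-136893164), with that of C3ar1, a receptor gene on another chromosome with a like pattern (chr6:122856158-122856407). Capitals mark AGGAAG or its reverse complement CTTCCT, the core of sites read by ETS factors such as the myeloid regulator PU.1, and TGANTCA, the AP-1 type site.
C1qb: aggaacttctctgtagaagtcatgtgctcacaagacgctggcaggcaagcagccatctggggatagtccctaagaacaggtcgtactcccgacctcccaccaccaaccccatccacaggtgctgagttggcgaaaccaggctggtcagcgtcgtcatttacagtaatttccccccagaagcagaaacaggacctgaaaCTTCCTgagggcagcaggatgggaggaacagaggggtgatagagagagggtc
C1qc: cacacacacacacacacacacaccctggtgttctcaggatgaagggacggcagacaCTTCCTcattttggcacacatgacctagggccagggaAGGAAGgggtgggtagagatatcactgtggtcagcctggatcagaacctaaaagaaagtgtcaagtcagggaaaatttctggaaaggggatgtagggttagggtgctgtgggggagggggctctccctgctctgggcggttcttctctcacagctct
C3ar1: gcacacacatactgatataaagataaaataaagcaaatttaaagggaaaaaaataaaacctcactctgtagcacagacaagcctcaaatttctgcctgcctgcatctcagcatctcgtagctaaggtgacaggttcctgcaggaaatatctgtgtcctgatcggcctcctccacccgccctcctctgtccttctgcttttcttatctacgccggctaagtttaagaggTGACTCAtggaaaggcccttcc

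AGGAAG was found on either strand 1 time before C1qb, 2 times before C1qc and 0 times before C3ar1. Of the 5 members with a window in the RefSeq table (C1qb, C1qc, C3, C3ar1 and C5ar1), 3 held it, and so did 29.5% of 32851 windows of the same length. TGANTCA was found before C3ar1 alone of the 5, and in 6.75% of all windows. TTGCNNAA, the C/EBP type site, was found before C3 alone (9.56% of all windows). TTCNNNGAA, the STAT type site, was in 0 of the 5 windows and in 7.02% of all windows. These matches are letters in a short window, and say nothing of binding.

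C1qa, the A chain, ran from 126 to 272 CPM in WT (median 184) and from 127 to 260 in Plcg2HET (median 189). It ran from 69.6 to 122 in Trem2KO (median 99.1) and from 49.3 to 102 in Plcg2KO (median 61.6). Every library of either knockout was below every WT and every Plcg2HET library, and the knockouts overlapped each other. The mean fell from 189 ± 60.9 CPM in WT to 66.6 ± 20.6 in Plcg2KO and 96.5 ± 21.7 in Trem2KO (SD, n = 6), which is 35.3% and 51.2% of WT. In the fit with a term for sex, C1qa fell by 1.35 on the log2 scale in Plcg2KO (SE 0.16, edgeR adjusted p = 1.12e-06) and by 0.94 in Trem2KO (SE 0.15, edgeR adjusted p = 0.000166). The difference between the knockouts was -0.41 (95% interval -0.71 to -0.10, edgeR adjusted p = 0.0674) and was not called, though it was with DESeq2, in the fit of these 2 groups alone and without Plcg2KO M2 (adjusted p 0.0425 to 0.434 over 24 alternatives). The call in Trem2KO was lost in males alone (edgeR adjusted p = 0.0901).

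C1qb, the B chain, ran from 92.3 to 188 CPM in WT, from 104 to 194 in Plcg2HET, from 53.6 to 86.4 in Trem2KO and from 38.8 to 79.2 in Plcg2KO, with medians of 144, 142, 67.4 and 51.5. Both knockouts again lay wholly below WT and Plcg2HET. In the fit with a term for sex, C1qb fell by 1.25 on the log2 scale in Plcg2KO (SE 0.11, edgeR adjusted p = 1.05e-08) and by 0.99 in Trem2KO (SE 0.11, edgeR adjusted p = 6.56e-07). Its mean CPM, with no account of sex, was 37.9% and 49.2% of that in WT. C1qc, the C chain, ran from 94.7 to 178 CPM in WT, from 85.2 to 173 in Plcg2HET, from 53.6 to 89.0 in Trem2KO and from 41.4 to 82.8 in Plcg2KO, with medians of 126, 117, 71.8 and 50.5. Here the highest Trem2KO library passed the lowest Plcg2HET library, and no knockout library reached WT. C1qc fell by 1.13 in Plcg2KO (SE 0.13, edgeR adjusted p = 7.67e-07) and by 0.83 in Trem2KO (SE 0.13, edgeR adjusted p = 7.56e-05). In the libraries labelled Plcg2HET the 3 chains differed from WT by 0.04, 0.07 and -0.06, with 95% intervals of -0.26 to 0.34, -0.14 to 0.28 and -0.31 to 0.19, and none was called. In bulk cortex, fewer microglia and less RNA per microglia cannot be told apart.

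Per length, the 3 chains stood far above the other members: the mean TPM over 24 libraries was 346 for C1qa, 260.5 for C1qb and 247 for C1qc, then 86.7 for C4b, 9.55 for Serping1, 5.54 for C3ar1, 2.34 for C5ar1 and 0.578 for C3. In the authors' TPM, which corrects for gene length, C1qa made up 40.1% of the summed C1q signal, C1qb 30.4% and C1qc 29.6% (means over 24 libraries). The sum was 1184 ± 294 TPM in WT, 1147 ± 287 in Plcg2HET, 621 ± 119 in Trem2KO and 462 ± 138 in Plcg2KO (SD, n = 6). The share of C1qa was 40.9 ± 1.51% in WT and 37.9 ± 2.34% in Plcg2KO, and that of C1qc 28.9 ± 1.41% and 31.3 ± 0.92% (SD, n = 6), and the ranges of both shares overlapped between the groups. The longest transcripts of C1qa, C1qb and C1qc hold 59.5%, 57.4% and 57.5% G and C, the 3 highest values of the 8 members, and the Plcg2KO libraries had the negative GC trends given above. The part of the GC trends in these shares was not tested.

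C3ar1, the receptor for C3a (chromosome 6, 122847140 to 122856157, mm10, minus strand), followed the C1q chains. It ran from 9.97 to 18.7 CPM in WT (median 14.2), from 13.2 to 24.1 in Plcg2HET (median 16.5), from 5.89 to 9.33 in Trem2KO (median 7.18) and from 4.22 to 8.65 in Plcg2KO (median 5.37). No knockout library reached a WT or Plcg2HET library. C3ar1 fell by 1.17 on the log2 scale in Plcg2KO (SE 0.12, edgeR adjusted p = 1.76e-07) and by 0.97 in Trem2KO (SE 0.12, edgeR adjusted p = 4.21e-06). The difference of 0.30 between Plcg2HET and WT was not called (95% interval 0.06 to 0.53, edgeR adjusted p = 0.0815), but was with GC and length offsets and without Plcg2HET F2. Its transcript holds 43.0% G and C, the lowest of the 8 members.

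C5ar1, the receptor for C5a (chromosome 7, 16246743 to 16259540, minus strand), was lower throughout, at 2.14 to 4.21 CPM in WT (median 3.02), 3.07 to 7.97 in Plcg2HET (median 4.29), 1.06 to 2.34 in Trem2KO (median 1.77) and 1.23 to 3.19 in Plcg2KO (median 1.99). Unlike C3ar1, its mean was not lower in Plcg2KO than in Trem2KO, and the difference of 0.25 between them was not called (95% interval -0.08 to 0.58, edgeR adjusted p = 0.30). It fell by 0.77 on the log2 scale in Trem2KO (SE 0.17, edgeR adjusted p = 0.00255, but 0.236 when fitted on males only and 0.0762 on females only) and by 0.52 in Plcg2KO (SE 0.17, edgeR adjusted p = 0.0385). It rose by 0.57 in the libraries labelled Plcg2HET (SE 0.16, edgeR adjusted p = 0.0173). The call in Plcg2KO was lost in 12 of 24 alternatives (adjusted p 0.0208 to 0.395), among them the fits without WT M1, M3 or F1 or Plcg2KO M3, M4 or F1. The call in Plcg2HET was lost in 6 of 24 (adjusted p 0.00518 to 0.306), among them the fit without Plcg2HET F3, the highest library. The ratio of C3ar1 to C5ar1 CPM was 4.79 ± 0.87 in WT, 4.02 ± 0.85 in Plcg2HET, 4.24 ± 0.96 in Trem2KO and 3.18 ± 1.14 in Plcg2KO (SD, n = 6), with overlapping ranges.

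C3, the central component (chromosome 17, 57203967 to 57228136, minus strand, sharing its span with the microRNA gene Mir6978), was low in all libraries. It ran from 0.822 to 2.32 CPM in WT (median 1.72), from 0.846 to 4.27 in Plcg2HET (median 1.61), from 0.637 to 1.60 in Trem2KO (median 1.02) and from 0.346 to 0.986 in Plcg2KO (median 0.734), on 17 to 242 counts. All genotypes overlapped. C3 fell by 1.15 on the log2 scale in Plcg2KO (SE 0.31, edgeR adjusted p = 0.0125), a call lost in males alone, in females alone and without WT M1 (adjusted p 0.0582). In Trem2KO it differed by -0.73 (SE 0.30, edgeR adjusted p = 0.0953), and in Plcg2HET by 0.31 (SE 0.29, edgeR adjusted p = 0.505), both not called, though the first was in the fit of those 2 groups alone and with GC and length offsets. Against Plcg2HET, C3 was lower in Plcg2KO (log2 fold change -1.46, edgeR adjusted p = 0.00106) and in Trem2KO (-1.04, edgeR adjusted p = 0.0179). The second call was lost in 6 of 24 alternatives (adjusted p 0.00395 to 0.430), among them the fits without Trem2KO F2 and without Plcg2HET F1, and the first in males alone.

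C4b, the mouse C4 component (chromosome 17, 34728381 to 34743897, minus strand), carried the most counts of the 8 members and the widest spread. In WT it ran from 97.6 to 301 CPM (median 186), and in Plcg2HET from 125 to 593 (median 334). In Trem2KO it ran from 134 to 386 CPM (median 216), and in Plcg2KO from 58.8 to 191 (median 91.0). All pairs of genotypes overlapped, and males and females of 1 genotype differed widely. The means were 189 ± 82.8 CPM in WT, 339.7 ± 172 in Plcg2HET, 245 ± 114 in Trem2KO and 103 ± 53.1 in Plcg2KO (SD, n = 6). C4b was lower in Plcg2KO than in Trem2KO (edgeR log2 fold change -0.99, SE 0.29, adjusted p = 0.0234) and lower in Plcg2KO than in Plcg2HET (log2 fold change -1.55, SE 0.29, edgeR adjusted p = 0.000262). It was higher in Plcg2HET than in WT (log2 fold change 0.92, SE 0.28, edgeR adjusted p = 0.0243). The differences from WT in Plcg2KO (log2 fold change -0.63, 95% interval -1.19 to -0.08, edgeR adjusted p = 0.146) and in Trem2KO (0.36, 95% interval -0.19 to 0.90, edgeR adjusted p = 0.416) were not called, though the second was in the fit of those 2 groups alone (adjusted p = 0.0173 by edgeR).

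In Plcg2KO against WT the 3 C1q chains and C3ar1 kept their call in all 24 alternatives. For C4b, the call in Plcg2KO against Plcg2HET was kept in all 24 (largest adjusted p 0.0226), and 2 other calls were not. C4b in Plcg2HET against WT was lost in 13 of 24 alternatives (adjusted p 0.00419 to 0.293), among them the fits without WT M2, M3 or F1, without Plcg2HET M1, M2 or F1, and with GC and length offsets (log2 fold change 0.75, edgeR adjusted p = 0.0783). C4b in Plcg2KO against Trem2KO was lost in 6 of 24 (adjusted p 0.0155 to 0.381): in each sex alone, with GC and length offsets (log2 fold change -0.81, edgeR adjusted p = 0.116), and without Trem2KO M1 or F3 or Plcg2KO F1. The lowest C4b values in Plcg2HET were those of M3 (125 CPM) and F2 (192 CPM), and these were its only libraries with a negative GC trend (-0.45 and -0.37). With the mean of each genotype and sex taken out, the Pearson r of log2 CPM with the GC trend over 24 libraries was 0.60 for C4b and 0.51 for Serping1, and from 0.02 to 0.23 for the other 6 members, as a description of libraries that share depth and composition. C4a, a near copy of C4b in the same region (34809092 to 34823454), was at 0.386 to 2.0 CPM and took 0.101% to 1.38% of the C4 counts. Reads of the copies may not be fully told apart by the counting.

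The 9 markers of reactive astrocytes, none at 0, summed to 831 to 2594 CPM in WT, 1150 to 4043 in Plcg2HET, 854 to 1944 in Trem2KO and 368 to 1247 in Plcg2KO. In Plcg2KO, 6 of the 9 were lower and 1 higher against WT (median log2 fold change -0.56), and likewise 6 and 1 against Plcg2HET (median -0.73). In Plcg2KO against Trem2KO, 4 of the 9 were lower and 1 higher, and in Trem2KO against WT none was lower and 1 was higher. In Plcg2HET against WT none was lower and 1 was higher, and in Trem2KO against Plcg2HET 4 were lower and none higher. The mean of Gfap was 1490 CPM in WT and 1236 in Trem2KO, where that of C4b was 189 and 245, and neither difference was called. The mean sum of the 9 markers, 1633 CPM in WT and 1364 in Trem2KO, lay close to the level of Gfap alone. The part of these markers in the level of C4b was not tested. General astrocyte markers, 10 genes with none at 0, summed to 5552 to 7381 CPM in WT and 7051 to 7536 in Plcg2KO, and of the 10 none was lower and 2 were higher in Plcg2KO against WT (edgeR). The ratio of C4b to C1qb CPM was 1.30 ± 0.26 in WT, 1.85 ± 0.55 in Plcg2KO, 2.30 ± 0.97 in Plcg2HET and 3.38 ± 0.93 in Trem2KO (SD, n = 6). Every Trem2KO library had a ratio above every WT library (2.37 to 4.50 against 0.972 to 1.71). The divisor C1qb was itself wholly lower in Trem2KO than in WT, so a gene that did not fall would also have a higher ratio. Relative to the 12 microglial genes described below, 75.8% of all genes were higher in Trem2KO than in WT. The split of this ratio is therefore not particular to C4b. The ratio of C4b to Gfap CPM was also higher in every Trem2KO library than in every WT library, at 0.166 to 0.219 against 0.106 to 0.152. It ran from 0.146 to 0.199 in Plcg2KO and from 0.121 to 0.209 in Plcg2HET, both overlapping WT. The means of this ratio were 0.131 in WT, 0.154 in Plcg2HET, 0.176 in Plcg2KO and 0.194 in Trem2KO, so a higher mean than in WT was not particular to Trem2KO.

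**Figure D2:**
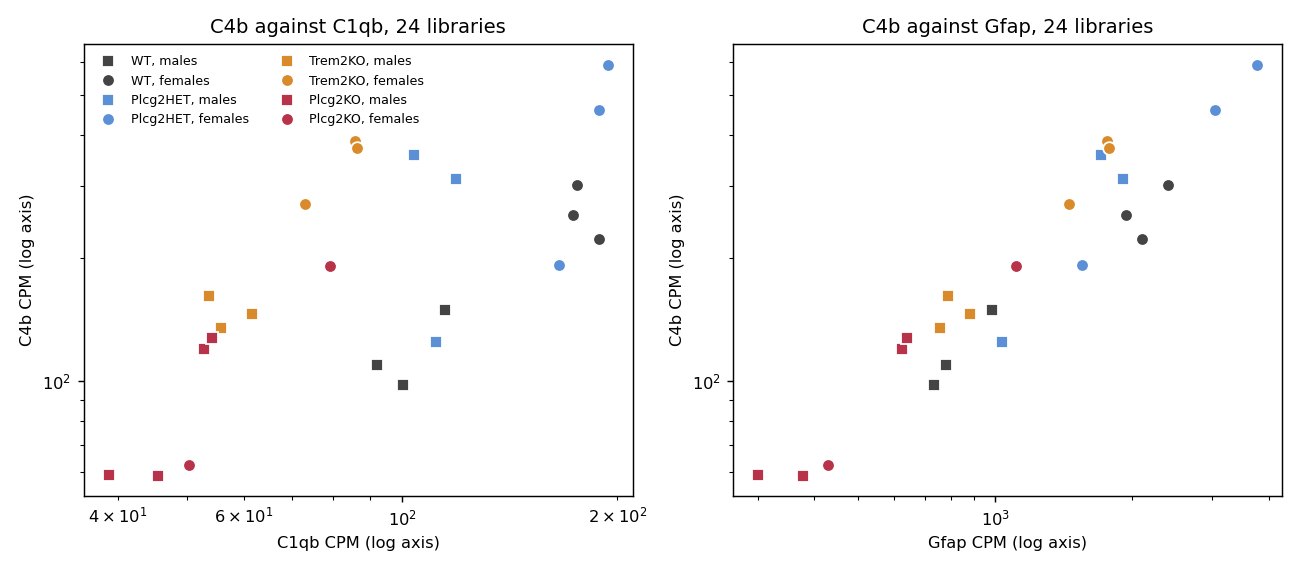
C4b CPM against C1qb CPM (left) and against Gfap CPM (right) in 24 libraries, on log axes; colours are genotypes, squares males and circles females. At C1qb levels between 53.6 and 86.4 CPM, Trem2KO libraries hold 134 to 386 CPM of C4b, and against Gfap the Trem2KO libraries also lie above those of WT (ratio 0.166 to 0.219 against 0.106 to 0.152). The ratio to Gfap runs from 0.146 to 0.199 in Plcg2KO and from 0.121 to 0.209 in Plcg2HET.

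Serping1, which encodes C1 inhibitor (chromosome 2, 84765360 to 84775429, minus strand), moved the other way. It ran from 3.66 to 7.96 CPM in WT (median 6.38), from 6.22 to 10.4 in Plcg2HET (median 7.91), from 7.10 to 10.4 in Trem2KO (median 8.67) and from 6.78 to 9.55 in Plcg2KO (median 8.11). Each of the other genotypes overlapped WT, and the WT males were the lowest of the 24 libraries. Serping1 rose by 0.53 on the log2 scale in Trem2KO (SE 0.13, edgeR adjusted p = 0.00693), by 0.50 in Plcg2KO (SE 0.13, edgeR adjusted p = 0.0126) and by 0.44 in Plcg2HET (SE 0.13, edgeR adjusted p = 0.0245). The call in Plcg2KO was lost with no sex term and in females alone, that in Trem2KO in each sex alone, and that in Plcg2HET in 10 of 24 alternatives (adjusted p 0.00285 to 0.496), among them the fits without WT M2 or M3 or Plcg2HET M2, F1 or F3. The 3 genotypes differed from each other by at most 0.10 in size, and none of these differences was called. Markers of meningeal fibroblasts, 8 genes with none at 0, summed to 138 to 166 CPM in WT, 161 to 232 in Plcg2HET, 194 to 224 in Trem2KO and 178 to 243 in Plcg2KO. Of the 8, 6 were higher than WT in Plcg2KO, 5 in Trem2KO and 4 in Plcg2HET, and their part in the level of Serping1 was not tested. The 7 markers of border-associated macrophages summed to 18.1 to 26.3 CPM in WT and 29.8 to 34.4 in Plcg2KO, 31.8 to 43.7 in Trem2KO and 24.1 to 36.3 in Plcg2HET, and that part was not tested either.

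**Figure D3:**
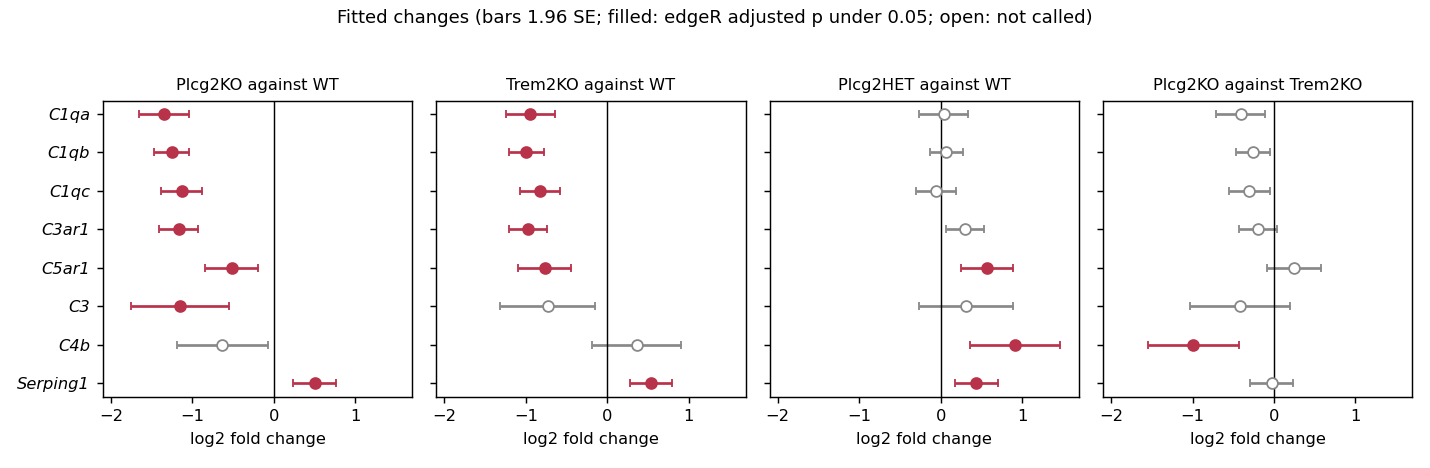
Fitted log2 fold change of each member in 4 comparisons, with bars of 95% intervals; filled points passed an adjusted p under 0.05. The C1q chains and C3ar1 are filled and left of 0 in both knockouts against WT, and C4b is the only filled point in Plcg2KO against Trem2KO.

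The fall of the C1q chains and C3ar1 was then set against that of other microglial genes. A mean of log2(CPM + 0.5) over 12 microglial genes that include no member (among them Csf1r, Cx3cr1, Spi1 and Tmem119) was subtracted in each library, and 6 libraries were compared with 6 by a two-sided exact permutation test for every gene, adjusted over 16316 genes. The test took no account of sex, though Plcg2KO held 4 males and 2 females. The smallest p this design allows is 0.00216. The 12 genes, none at 0, summed to 829.1 to 1421 CPM in WT, 888 to 1732 in Plcg2HET, 613 to 857 in Trem2KO and 490 to 734 in Plcg2KO, and 12 of the 12 were lower in Plcg2KO and 10 in Trem2KO (edgeR, against WT). Their median log2 fold change was -1.07 in Plcg2KO and -0.69 in Trem2KO. For 9 homeostatic microglial genes it was -0.70 and -0.64, and for 10 genes of plaque-associated microglia -1.50 and -1.24. The falls of the C1q chains and C3ar1 lay between the medians of the homeostatic and plaque-associated lists in each knockout. The result relative to the 12 genes therefore does not hold for every set of microglial genes. The fold changes below are on the log2(CPM + 0.5) scale, which understates changes of low genes.

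In Plcg2KO against WT, 4 members were lower relative to these markers, where 96.4% of all genes were called, 0.503% lower and 95.9% higher. C1qa was lower by more than the markers by a log2 difference of -0.50 (exact permutation, adjusted p = 0.00367), C1qb by -0.38 (exact permutation, adjusted p = 0.00367), C1qc by -0.27 (exact permutation, adjusted p = 0.0142) and C3ar1 by -0.23 (exact permutation, adjusted p = 0.0253). C1qb stood at 1.53 ± 0.11 above the marker mean in WT and 1.15 ± 0.12 in Plcg2KO (log2, SD, n = 6). C1qc lost its call with GC and length corrected values (difference -0.10, exact permutation, adjusted p = 0.363), an alternative chosen after seeing the data. Serping1 and C5ar1 were higher relative to the markers by 1.41 and 0.46, as were most genes of the table, and C4b (0.09) and C3 (0.14) were not called.

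In Trem2KO against WT, 3 members were lower relative to the markers and 2 higher, where 76.2% of all genes were called, 0.478% lower and 75.8% higher. C1qb differed by -0.28 (exact permutation, adjusted p = 0.00586), C3ar1 by -0.22 (exact permutation, adjusted p = 0.00586) and C1qa by -0.23 (exact permutation, adjusted p = 0.0345), while C1qc differed by -0.12 and was not called. The call of C1qa was lost in 9 of 18 alternatives (adjusted p 0.0173 to 0.249), among them those without WT M1, F1 or F3 or Trem2KO M1, M2, M3 or F3, and that of C3ar1 with GC and length corrected values and with 8 index genes outside the homeostatic list. C4b was higher relative to the markers by 1.07 and Serping1 by 1.22. In Plcg2HET against WT no member was called (4 at an unadjusted exact permutation p under 0.05), and 0% of all genes were. Between the knockouts no member was called (3 at an unadjusted exact permutation p under 0.05), beside 18.9% of all genes called, 0.454% lower and 18.5% higher. The largest difference was that of C4b, at -0.98 (exact permutation, adjusted p = 0.0511). Against Plcg2HET, C1qa, C1qb and C3ar1 were lower in Plcg2KO and Serping1 higher, where 96.1% of all genes were called, 0.472% lower and 95.6% higher. With GC and length corrected values C1qa and C1qb lost their calls (exact permutation, adjusted p = 0.347 and 0.460). C1qa also lost it without the libraries rich in Rn45s (exact permutation, adjusted p = 0.0523). C1qc and C4b were called lower with the homeostatic list as index. In Trem2KO against Plcg2HET, C1qb and C3ar1 were lower and Serping1 higher, where 89.3% of all genes were called, 0.38% lower and 88.9% higher. C1qb lost its call there with 8 index genes outside the homeostatic list (exact permutation, adjusted p = 0.137) and with GC and length corrected values (0.382). It also did without the libraries rich in Rn45s (0.0586). C1qa, C1qc and C5ar1 were each called in at least 1 alternative.

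**Figure D4:**
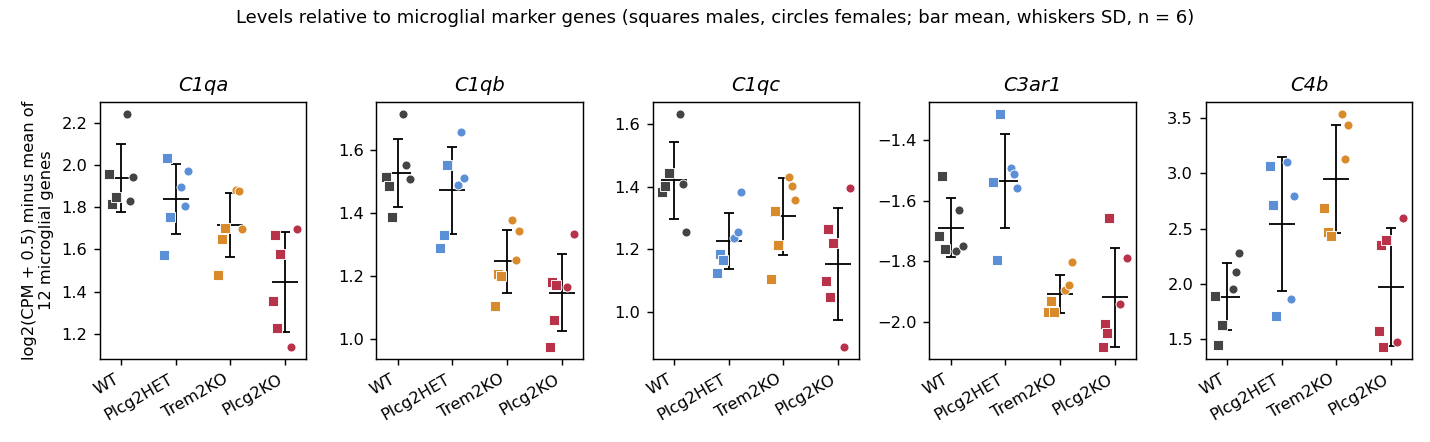
Log2(CPM + 0.5) of 5 members minus the mean of 12 microglial genes, in each library by genotype; squares are males, circles females, with mean and SD of 6 mice. C1qb falls from 1.53 in WT to 1.25 in Trem2KO and 1.15 in Plcg2KO, and C4b is highest in Trem2KO.

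Females had higher levels than males for most members. With genotype in the fit, 7 of the 8 were higher in females, where 2.37% of all genes were called, 2.27% higher and 0.0981% lower. C4b differed most, by a log2 fold change of 0.88 (SE 0.20, edgeR adjusted p = 0.0122), followed by C5ar1 (0.63), C1qb (0.63), C1qa (0.59), C1qc (0.57), C3ar1 (0.54) and Serping1 (0.38, SE 0.10, edgeR adjusted p = 0.0277). C3 (0.47, SE 0.22, edgeR adjusted p = 0.430) was not called. In WT, C1qb was at 92.3 to 115 CPM in 3 males and 174 to 188 in 3 females, and in Trem2KO at 53.6 to 61.6 and 73.2 to 86.4. Every female was above every male in 3 of 4 genotypes for C1qb, C1qc, C3ar1, C5ar1 and Serping1, in 2 for C1qa and C4b, and in 0 for C3. With 3 males and 3 females, or 4 and 2 in Plcg2KO, such a split can readily arise by chance. The share of all genes with such a split was not counted, so these counts are a description. In Plcg2KO the 2 females were far apart for C4b, at 62.4 and 191 CPM, and their males ran from 58.8 to 127 CPM. Without the 3 libraries rich in Rn45s, 4 members stayed higher in females, and C4b, C1qa and Serping1 were not called. C4b was also not called without Plcg2KO F2, nor Serping1 in 9 fits that each left out 1 library (WT M2, M3, F1, F2, F3, Trem2KO M2, F1, Plcg2HET F1 or F3).

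A genotype effect that differed between the sexes was not found for any member. Of 24 contrasts of a genotype effect against WT in females minus that in males, 0 passed an adjusted p under 0.05 by edgeR, 0 had an unadjusted p under 0.05, and 0% of all genes were called in any of the 3. The fall in Plcg2KO was -1.47 in females and -1.10 in males for C1qb, a difference of -0.37 (SE 0.22), and -1.67 and -1.14 for C1qa, a difference of -0.53 (SE 0.32). With 2 females in Plcg2KO, differences of this size could not be told from 0. Without the 3 libraries rich in Rn45s, 2 of the 24 had an unadjusted p under 0.05.

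The genes whose residual pattern was most like that of each member were taken as the 3 with the highest Pearson r of log2 CPM over the 24 libraries, after the mean of each genotype and sex was subtracted, so that the knockouts themselves do not enter. These libraries share depth, composition and dissection, and the values are a description. For C1qa, C1qb and C1qc the most alike gene was Trem2 (r 0.93, 0.92 and 0.93), followed by Ccs and Cd22, by Cst7 and Cd22, and by Cd22 and H2-DMb1. For C4b it was Gfap, the intermediate filament of reactive astrocytes (r 0.96), then Irf1 (0.94) and Serpina3n (0.93). By the same measure, C4b had r of 0.91 with the mean of the microglial index genes, 0.94 with that of the reactive astrocyte markers and -0.39 with that of the general astrocyte markers, and the C1q chains had 0.85 to 0.86, 0.77 to 0.79 and -0.07 to 0.08. C3ar1 was most like Il10ra, H2-K1 and Il21r (r 0.88, 0.88 and 0.87), and C3 most like Oas1a, Usp18 and Myo1g (r 0.85, 0.82 and 0.81). C5ar1 was most like Shisa4, Trappc3 and Rab5c (r 0.88, 0.86 and 0.83), and Serping1 most like Guca1a, Gm6251 and Cxcl16 (r 0.85, 0.83 and 0.83). Among the members, the C1q chains had r of 0.88 to 0.94 with each other and 0.69 to 0.78 with C4b, while C3ar1 and C5ar1 had -0.01.

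Of 58 other genes of the complement system, 41 passed the filter on low counts, and the list was chosen with earlier results of these data known. In Plcg2KO against WT 5 were lower and 1 higher, in Trem2KO 4 were lower and 5 higher, and in Plcg2HET 1 was lower and 3 higher, with medians of 0.00, 0.04 and -0.05 on the log2 scale. These are 14.6%, 22.0% and 9.76% of the 41, beside 13.1%, 15.7% and 18.0% of all genes. The largest change of the 41 was that of a receptor subunit: Itgax, the alpha chain of complement receptor 4, fell by 4.49 in Plcg2KO (SE 0.22, edgeR adjusted p = 1.65e-13) and by 3.09 in Trem2KO (SE 0.20, edgeR adjusted p = 5.97e-11). Its beta chain Itgb2 fell by 1.23 and 0.81, and Itgam, the alpha chain of complement receptor 3, by 0.57 and 0.49. Itgax and Itgb2 were also lower in Plcg2KO than in Trem2KO (log2 fold changes -1.39 and -0.42, edgeR adjusted p = 0.000765 and 0.00829). Cfp, which encodes properdin, the stabiliser of the alternative pathway enzyme, fell by 0.94 in each knockout. C4a fell by 1.27 in Plcg2KO (SE 0.31, edgeR adjusted p = 0.00709).

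C2, the classical pathway protease that joins C4, rose by 0.80 in Trem2KO (SE 0.18, edgeR adjusted p = 0.00381) and by 0.58 in Plcg2HET (SE 0.19, edgeR adjusted p = 0.0316). Colec12, a scavenger receptor collectin, rose by 0.45 in Plcg2KO and 0.35 in Trem2KO. The Sez6 family, neuronal proteins with complement control domains, rose in Trem2KO: Sez6 by 0.59, Sez6l by 0.41 and Sez6l2 by 0.60, and Sez6l2 rose by 0.65 in Plcg2HET. Csmd2, of a like build, rose by 0.44 in Plcg2HET (SE 0.16, edgeR adjusted p = 0.0496), and C1s2, a low gene with a close copy, fell by 1.31 there. In Plcg2KO against Trem2KO, Masp1, Sez6l2 and Clu, the soluble inhibitor clusterin, were lower beside Itgax and Itgb2 (log2 fold changes -0.33, -0.50 and -0.36), and no listed gene was higher. Of 7 terminal pathway genes 3 passed the filter, and of 6 membrane regulators 5. None of these was called against WT in any genotype. The calls of the other complement genes rest on the main fit, and were not put through the alternatives. With GC and length offsets, the genes called between the knockouts over the whole table went from 2684 to 967.

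**Figure D5:**
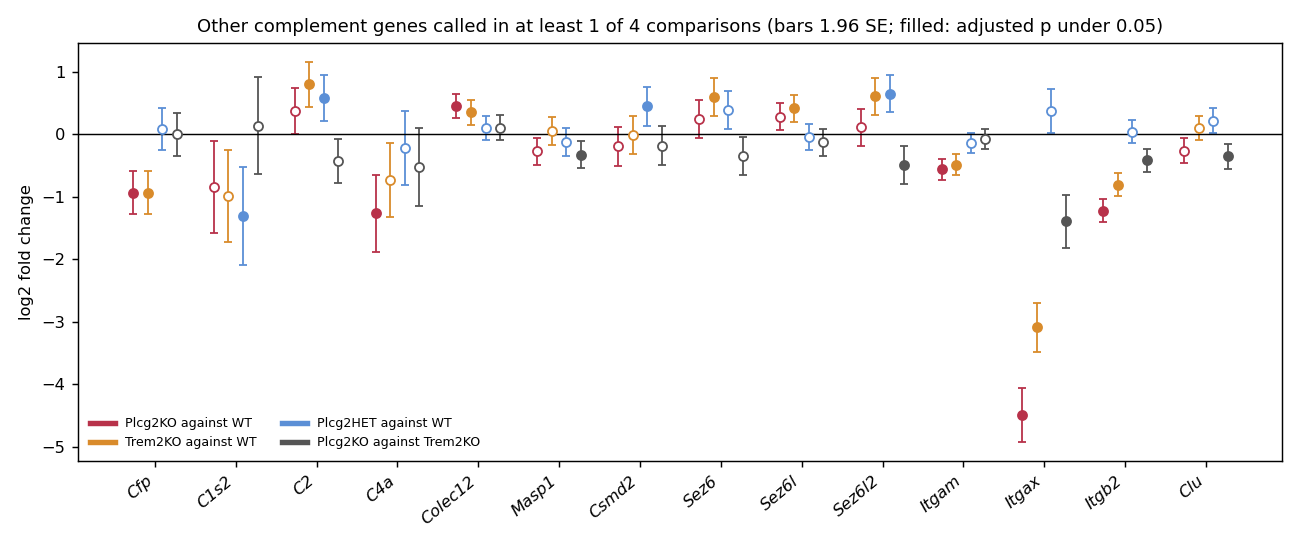
Fitted log2 fold change of the 14 other complement genes called in at least 1 of 4 comparisons, with bars of 95% intervals and filled points where the adjusted p was under 0.05; colours are comparisons. Itgax lies far below the rest in both knockouts, at -4.49 and -3.09.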

How the data were processed

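RNA of 24 cortices was measured as 1 mRNA library per mouse. The authors deposited whole-number read counts per gene (24421 genes), made on mm10 with STAR 2.7.10a and featureCounts 2.0.3 per the submitters' processing notes. A second deposited table held expected counts and TPM per the file headers; neither its tool nor the strand setting is given in the sources used here. The authors' TPM served only to compare levels between genes. The deposited expected counts, rounded, entered 1 alternative fit.

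Counts were filtered with filterByExpr (minimum count 10 by genotype), scaled by TMM and fitted with edgeR 4.0.16 (R 4.3.3, robust quasi-likelihood) over all 24 libraries, with genotype and sex as terms, and p-values were adjusted over 16316 genes by the Benjamini-Hochberg method. Relative levels used the mean of 12 microglial genes, not all of which are reported here by name, log2(CPM + 0.5) and exact permutation of 6 against 6 libraries, 924 regroupings. The permutation had no term for sex. The fitting code was tested on simulated data. Promoter windows came from RefSeq (GRCm38.p6). Every library is 1 mouse, and total counts of 36272966 to 82990818 set the counting error.

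The members and lists were chosen with earlier results of these data known. Named genes are the 8 members, other complement genes called in a comparison with WT or between the knockouts, C4a, the 3 genes most like each member, the marker lists, Plcg2 and Trem2. Rn45s was added as a library measure. Alternatives were RLE size factors, other count filters, DESeq2 1.42.0, a fit without sex, a block for the replicate code, the 2 groups alone, each sex alone, each library left out, libraries rich in Rn45s left out, offsets for GC and length, other microglial index genes and a pseudocount of 1.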

Additional observations from a re-analysis of the deposited data

Results flagged for a closer look

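Each member's CPM was examined for single libraries that stood apart, in 32 sets of 6 libraries (8 genes in 4 genotypes). Chance would give such a gap in about 1 of 20 sets, and 2 were found. C1qc was at 82.8 CPM in Plcg2KO F2, where the other 5 Plcg2KO libraries ran from 41.4 to 56.1 CPM. C5ar1 was at 7.97 CPM in Plcg2HET F3, where the other 5 ran from 3.07 to 4.87 CPM, and this library held 29.0% of its counts in Rn45s.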

How the results depend on the processing

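Counts of members called kept within 1.5 times of those reported in all comparisons and alternatives except the following, and no call changed direction. The count in Plcg2KO against WT was 7, and 4 in females alone, where 2133 and 1011 of all genes were called. In Trem2KO against WT it was 6, and 3 in males alone, where 2565 and 72 of all genes were called. In Plcg2HET against WT it was 3, and 0 with no sex term, with only the 2 groups, in males alone, in females alone and without the libraries rich in Rn45s (edgeR, with 3, 4, 2, 1 and 3 at an unadjusted p under 0.05, and 3 by DESeq2). Over all genes, 2936 were called in the main fit there, and 2804, 736, 5, 419 and 807 in the alternatives with a count of 0, in the same order. In Plcg2KO against Trem2KO the count of members was 1, and 2 with DESeq2, 3 with only the 2 groups, and 0 in males alone, in females alone and with GC and length offsets (edgeR, with 1, 2 and 2 at an unadjusted p under 0.05). Over all genes, 2684 were called in the main fit there, 3593 with DESeq2 and 6712 with only the 2 groups. In males alone 11 were called, in females alone 6, and with GC and length offsets 967. For females against males the count of members was 7, and 4 without the libraries rich in Rn45s, where 387 and 146 of all genes were called. Relative to microglial markers it was 5 in Trem2KO against WT and 3 with 8 index genes, 0 between the knockouts and 1 with a pseudocount of 1, 4 in Plcg2KO against Plcg2HET and 2 with GC and length offsets, and 3 in Trem2KO against Plcg2HET and 5 with the homeostatic list as index. The cause was not tested.

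With each library left out in turn, the counts ran from 5 to 7 in Plcg2KO against WT, 6 to 6 in Trem2KO against WT, 1 to 4 in Plcg2HET against WT, 0 to 2 between the knockouts, 7 to 7 and 5 to 6 in Plcg2KO and Trem2KO against Plcg2HET, and 6 to 7 for the sexes. Relative to the markers they ran from 6 to 6, 4 to 5, 0 to 0, 0 to 2, 4 to 4 and 3 to 4 in the same order of genotype comparisons.

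With the replicate code as a block the counts were 6, 6, 3, 1, 7 and 6 in that order, and C5ar1 in Plcg2KO against WT lost its call. The labels do not say whether the codes pair the samples. Libraries of different genotypes with the same code had a mean r of 0.10 in their deviations from genotype means (-0.14 to 0.33, 33 pairs). With other codes it was -0.02 (183 pairs), and 4 of 23 libraries correlated best with their own code. The same code always means the same sex, and sex was left in these deviations, so the values cannot settle whether the codes pair the samples. C3 rests on 17 to 242 counts per library, the fewest of the 8 members.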
